A study of Homo sapiens with 12 samples.

Results

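The nuclear genes for respiratory complexes III and IV and for ATP synthase were examined in C4.2B cells, together with that for cytochrome c. Members were the genes whose symbol in the count files begins with UQCR, with COX and a digit or with ATP5 (the older ATP synthase names), plus CYC1 and CYCS. COX4NB was left out, since it is named for its place beside COX4I1. There were 55 such genes among the 23228 listed, 10 for complex III, 24 for complex IV, 20 for ATP synthase and 1 for cytochrome c. By role, 34 encode subunits of the 3 complexes, 7 are assembly factors of complex IV, 11 are isoforms or gene copies and 2 (ATP5S and ATP5SL) carry the ATP5 name but encode no structural subunit. CYCS encodes the carrier itself.

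Complex III (cytochrome bc1) takes electrons from ubiquinol and hands them to cytochrome c, a small soluble protein of the intermembrane space. Complex IV (cytochrome c oxidase) takes them from cytochrome c and reduces oxygen to water. Both pump protons across the inner mitochondrial membrane, and ATP synthase uses the return flow of protons to make ATP. The catalytic core of complex IV and parts of complex III and of the ATP synthase membrane sector are encoded by mitochondrial DNA, and those genes were not analysed here.

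C4.2B is an established, castration-resistant human prostate cancer cell line. The DMSO arm received vehicle. The GDC arm received 0.5 µM GDC-0941, which inhibits PI3K, and the GSK arm received 5 µM GSK126, which inhibits EZH2, the methyltransferase for lysine 27 of histone H3. The COMBO arm received both agents at these doses. All 4 arms were kept for 24 h in medium with 10% charcoal-stripped serum, which is depleted of steroid hormones, and the GSK and COMBO arms had been exposed to GSK126 for 6 days beforehand. PolyA RNA was sequenced from 3 libraries per arm, named A, B and C. A single cell line was used. Per the study's methods, cells were plated in triplicate after the pretreatment and then dosed, so p-values measure the spread between plates, and whether the pretreated cultures were separate was not stated.

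Each library held 8785218 to 44437751 counts in genes. The luminal prostate marker KLK3 was at 539.6 to 637 CPM in DMSO (CPM, gene counts scaled to equal library sizes) and 1695 to 2011 in COMBO. The luminal markers KLK2, TMPRSS2, FOLH1 and KRT8 were also above DMSO in every COMBO library, whereas HOXB13 was below it (446 to 512 CPM in DMSO, 296 to 309 in COMBO) and KRT18 overlapped with it. The basal markers TP63, KRT5 and KRT14 summed to at most 0.355 CPM in any library. The 4 fibroblast markers (COL1A1, COL1A2, DCN and PDGFRB) summed to 11.5 to 13.4 CPM in DMSO and 29.8 to 48.0 in COMBO. COL1A1 carried that sum (10.1 to 11.3 CPM in DMSO, 27.5 to 45.9 in COMBO), while COL1A2 was at 0 in the libraries of both arms, DCN reached 0.311 CPM and PDGFRB 2.84. On average, reads that fell outside genes were 14.2% of the total with DMSO, 15.6% with GDC, 18.8% with GSK and 21.8% with COMBO. The part of these differences in the results below was not tested.

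Together the 55 genes took 1.05% ± 0.0230 of all gene counts with DMSO, 1.07% ± 0.0195 with GDC, 1.0% ± 0.0186 with GSK and 0.787% ± 0.0256 with COMBO (SD, n = 3). The share was therefore lower in COMBO than in each other arm by more than the spread between libraries. In bulk RNA, fewer cells of a kind and less RNA per cell cannot be told apart. Of the 55 genes, 49 passed the filter on low counts and were tested among 14189 genes with the quasi-likelihood test of edgeR, and a gene is called higher or lower below where its p adjusted by Benjamini-Hochberg was under 0.05.

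In COMBO against DMSO, 35 of the 49 tested members were called lower and 4 higher, where 39.2% of all tested genes were called lower and 43.3% higher. The median log2 fold change of the members was -0.58, and that of all genes was 0.054. For 36 members all 3 COMBO libraries lay below all 3 DMSO libraries, against 39.0% of all genes, and for 4 members all 3 lay above, against 42.9%. In GDC alone, 10 members were called higher and 9 lower, with 20% of all genes called in each direction, and the median was 0.021. In GSK alone, 12 members were called higher and 24 lower, where 40.0% of all genes were higher and 35.7% lower, and the median was -0.12. The 3 comparisons share the DMSO libraries.

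The combination was then compared with each single agent. Against GDC, COMBO had 40 members called lower and 3 higher (38.0% and 37.9% of all genes), with a median of -0.57. Against GSK, it had 39 members called lower and 0 higher (26.9% and 19.0% of all genes), with a median of -0.40. At an unadjusted p under 0.05, and with DESeq2, the number higher was also 0, and it was 1 without COMBO library C. The interaction, which is the log2 change in COMBO less those in GDC and GSK added together, was called lower for 37 members and higher for 1, whereas 16.5% of all genes were lower and 4.86% higher. Its median was -0.42 over the members and -0.063 over all genes.

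**Figure D1:**
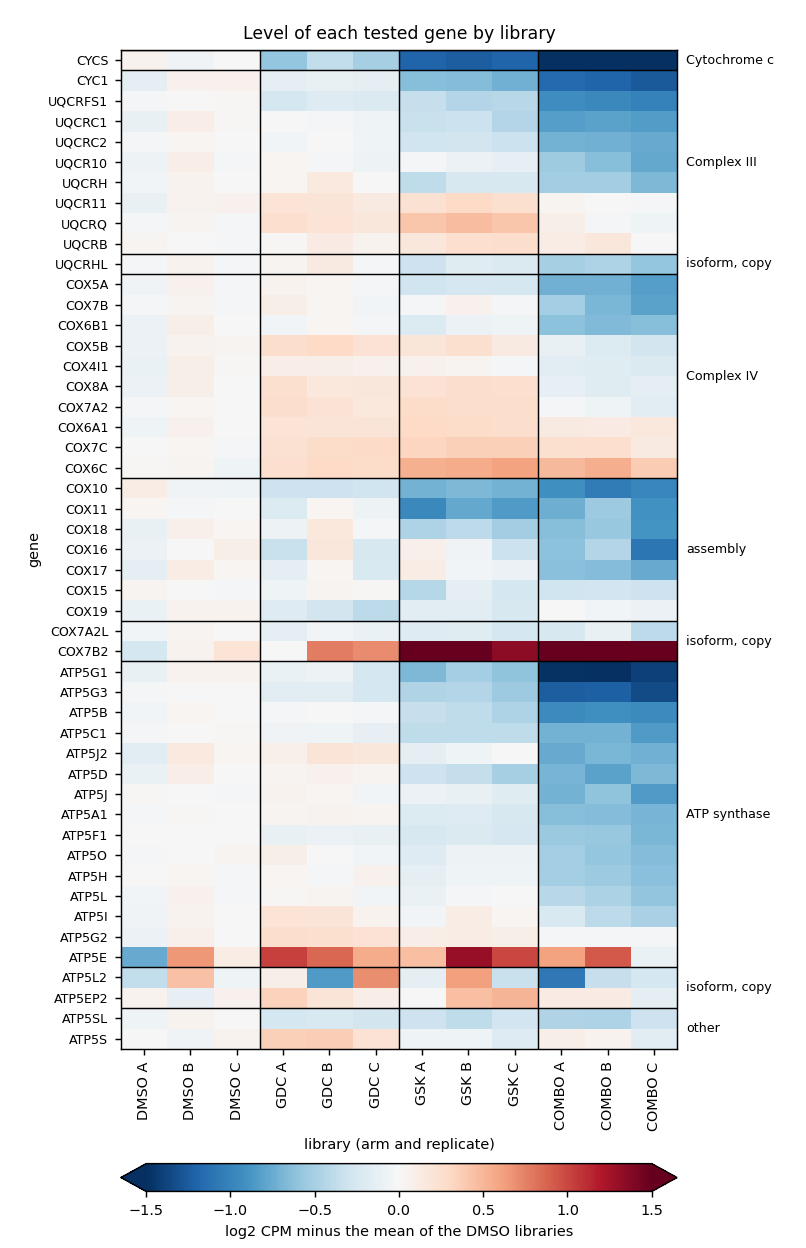
Level of the 49 tested genes (rows, grouped by complex and role) in the 12 libraries (columns), as log2 CPM minus the mean of the DMSO libraries, blue for lower and red for higher, with colours capped at 1.5 on either side. Most rows turn blue in the COMBO columns, CYCS most of all, while COX6C, COX7C and COX7B2 stay red there.

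The medians of the 3 complexes are given here as descriptions. In COMBO those of complex III and ATP synthase were close, and that of complex IV stood apart. In COMBO against DMSO, 39.2% of all genes were called lower and 43.3% higher. Among subunits, complex III had a median log2 fold change of -0.65 in COMBO against DMSO, with 6 of 9 called lower and 0 higher. ATP synthase had a median of -0.67, with 13 of 15 lower and 0 higher. Complex IV had a median of -0.17, with 6 of 10 lower and 3 higher, and with libraries scaled by their totals alone its median was 0.036, with 3 lower and 4 higher. Under the same scaling 3 complex III subunits and 2 ATP synthase subunits were called higher, and the medians of these complexes were -0.44 and -0.46. In GDC, 6 of 10 complex IV subunits were called higher and 0 lower (median 0.19), against 2 higher and 2 lower of 9 for complex III (-0.022, but 0.012 with library totals) and 1 higher and 3 lower of 15 for ATP synthase (0.014, but -0.028 with DESeq2 size factors). The complex III calls in GDC (22.2% in each direction) and the lower calls of ATP synthase (20%) were near the share of all genes. In GSK, complex IV subunits stood at a median of 0.21 with 6 higher and 2 lower, and complex III at -0.29 with 3 higher and 5 lower. ATP synthase stood at -0.12 with 1 higher and 8 lower, and its median became 0.032 with library totals. Of all genes, 40.0% were called higher and 35.7% lower in GSK. The higher calls of complex III in GSK (33.3%) and of complex IV in COMBO (30%) were under the shares of all genes. Scaling by library totals raised the median of all genes by 0.15 in GSK and 0.21 in COMBO, and changes are given relative to the main scaling. With library totals, 30.6% of all genes were called lower and 52.7% higher in COMBO.

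**Figure D2:**
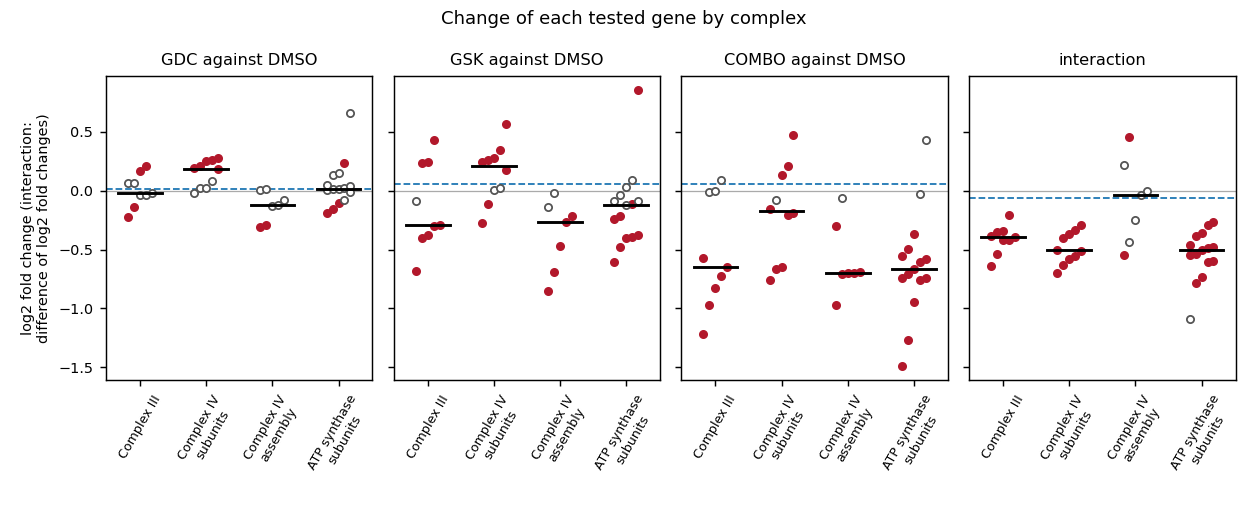
Log2 fold change of each tested gene (points) against DMSO in GDC, GSK and COMBO, and the interaction, for subunits of complex III, complex IV and ATP synthase and for assembly factors of complex IV. Filled points were called at an adjusted p under 0.05, open points were not, black bars are group medians and the blue dashed line is the median of all tested genes. In COMBO the complex IV subunits centre at -0.17 (0.036 with library totals), above the other groups, and in the interaction all subunit groups lie below the line.

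The regions upstream of 3 of these genes are shown because the genes stand for different directions of change: CYCS had the lowest log2 fold change of all members in COMBO, UQCRFS1 was among the lowest of complex III, and COX6A1 was among the complex IV subunits called higher. Each run is the 250 bases before the RefSeq start site on GRCh38.p14, 5′ to 3′ on the strand of the gene, with capitals for a match to the NRF1 or ETS motif. They lie at chr7:25125261-25125510 (minus strand) for CYCS, chr19:29213152-29213401 (minus strand) for UQCRFS1 and chr12:120437863-120438112 (plus strand) for COX6A1.
CYCS: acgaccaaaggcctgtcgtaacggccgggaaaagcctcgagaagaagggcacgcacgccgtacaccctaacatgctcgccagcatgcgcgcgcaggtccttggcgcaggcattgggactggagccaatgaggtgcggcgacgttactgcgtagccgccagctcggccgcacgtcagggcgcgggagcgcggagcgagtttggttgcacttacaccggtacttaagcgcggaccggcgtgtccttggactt
UQCRFS1: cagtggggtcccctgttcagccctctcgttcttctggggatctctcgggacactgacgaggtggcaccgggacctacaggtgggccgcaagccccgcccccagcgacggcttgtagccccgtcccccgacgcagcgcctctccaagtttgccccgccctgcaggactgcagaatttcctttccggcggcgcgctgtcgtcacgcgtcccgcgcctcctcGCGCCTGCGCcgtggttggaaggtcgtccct
COX6A1: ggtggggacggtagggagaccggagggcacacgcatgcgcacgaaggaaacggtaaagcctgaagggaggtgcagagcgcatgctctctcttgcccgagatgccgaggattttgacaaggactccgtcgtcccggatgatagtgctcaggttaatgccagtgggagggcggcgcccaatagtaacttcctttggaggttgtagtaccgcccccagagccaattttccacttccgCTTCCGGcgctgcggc
In UQCRFS1 the capitals mark a match to the motif of nuclear respiratory factor 1 (NRF1), which is GCGCA and GCGC with any 1 base between them, read on the other strand, 31 bases before the start. In COX6A1 they mark a match to CCGGAAG, the core bound by ETS factors such as GABP, also on the other strand, 16 bases before the start. The CYCS run held no exact match to either of these motifs. Only exact matches were sought, so this does not show that CYCS lacks a site for either factor. Its match to ACGTG, the core of the E-box, on the other strand is left in lower case.

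Promoter runs were found for 28 of the 35 genes that encode subunits or cytochrome c (80%). The genes without a run were ATP5B, ATP5D, ATP5G3, ATP5J2, COX6C, CYC1 and UQCRB. Searched on both strands, the NRF1 motif occurred in 6 of the 28 runs (21.4%), against 5.54% of 27195 promoters of the same length. CCGGAAG occurred in 9 (32.1%), against 8.82%. The 27195 promoters were not limited to genes tested here, so these percentages do not compare like sets of genes. The E-box CACGTG occurred in 3 (10.7%, against 6.50%), and its shorter core ACGTG, which the E-box contains, in 8 (28.6%, against 18.7%). The 9 genes with CCGGAAG were ATP5H, ATP5J, COX5B, COX6A1, COX6B1, COX8A, UQCR11, UQCRH and UQCRQ, and their median log2 fold change in COMBO was -0.20, compared with -0.65 for those without it. Several of the 9 are complex IV subunits, the complex with the highest median in COMBO, and CYCS is among those without. Motif and complex are therefore mixed, and the part of each was not tested. In the interaction the medians were -0.51 with CCGGAAG and -0.46 without. For the NRF1 motif the medians in COMBO were -0.67 with and -0.56 without. These are descriptions of letters in a window. A match is not a binding site, and a run without an exact match may still hold one.

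CYCS, the mobile carrier between complexes III and IV and also the activator of the apoptosome once it leaves mitochondria, had the largest fall. It lies on chromosome 7 (25118656 to 25125260, GENCODE 44 on hg38) and has 42 named pseudogenes, so its reads are partly uncertain. Its level was 919, 855 and 880 CPM with DMSO, 593, 687 and 628 with GDC, 384, 376 and 383 with GSK and 223, 252 and 194 with COMBO (libraries A, B and C). The arms did not overlap and fell in that order. The log2 fold changes against DMSO were -0.48 for GDC-0941 alone (SE 0.066, adjusted p = 1.39e-05), -1.21 for GSK126 alone (SE 0.068, adjusted p = 2.82e-12) and -1.99 for both agents (SE 0.069, adjusted p = 6.78e-16). The single-agent changes add up to -1.69. The interaction of -0.30 (SE 0.095, adjusted p = 0.0311) did not pass the threshold in 13 of 18 alternative fits, where adjusted p reached 0.270.

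In complex III, the subunits that carry the redox centres or form the large core fell most. CYC1, the cytochrome c1 that passes electrons to cytochrome c, stood at 246, 282 and 283 CPM with DMSO, 244, 251 and 244 with GDC, 174, 172 and 164 with GSK and 120, 118 and 113 with COMBO. GDC and DMSO overlapped, whereas the GSK libraries lay below both and the COMBO libraries below those of GSK. Its log2 fold change in COMBO was -1.21 (SE 0.052, adjusted p = 1.74e-14) and its interaction -0.40 (SE 0.074, adjusted p = 0.000600). In GDC its change of -0.14 (adjusted p = 0.0347) was lost in 3 of 19 alternative fits. UQCRFS1, the Rieske iron-sulfur protein, fell from 174 ± 1.88 CPM with DMSO to 149 ± 3.63 with GDC, 132 ± 4.41 with GSK and 89.0 ± 2.71 with COMBO (SD, n = 3), a change of -0.97 in COMBO (SE 0.045, adjusted p = 6.07e-14) with an interaction of -0.35 (SE 0.064, adjusted p = 0.000548).

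The core proteins UQCRC1 and UQCRC2, which flank the complex on its matrix side, changed by -0.83 (SE 0.051) and -0.73 (SE 0.038) in COMBO, the small subunit UQCR10 by -0.65 (SE 0.058), and the hinge protein UQCRH, which helps cytochrome c to dock, by -0.57 (SE 0.055). UQCRHL, an intronless gene on chromosome 1 that closely resembles UQCRH, was listed at 186 ± 5.93 CPM in DMSO, compared with 185 ± 5.62 for UQCRH, and changed by -0.51 in COMBO. Reads of UQCRH and UQCRHL may be shared, so both are uncertain.

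The other 3 complex III subunits, UQCRQ, UQCRB and UQCR11, were higher in GSK and not called in COMBO, where library totals gave them a higher call (0.21, 0.30 and 0.20). UQCRQ, a small subunit at the ubiquinone-binding side, was at 137, 143 and 138 CPM with DMSO, 166, 161 and 156 with GDC, 186, 193 and 187 with GSK and 148, 137 and 133 with COMBO. Both single agents thus lay above DMSO in all libraries, while COMBO overlapped with DMSO. The changes were 0.21 for GDC-0941 alone (SE 0.048, adjusted p = 0.00171), 0.43 for GSK126 alone (SE 0.048, adjusted p = 8.17e-08) and -0.0020 for both agents (SE 0.048, adjusted p = 0.970), and the interaction was -0.64 (SE 0.068, adjusted p = 1.16e-06). UQCR11 was at 113 ± 7.78, 128 ± 3.23, 135 ± 3.48 and 113 ± 2.58 CPM in the 4 arms, in the order DMSO, GDC, GSK, COMBO (SD, n = 3), with an interaction of -0.42. UQCRB changed by 0.23 in GSK and by 0.095 in COMBO (adjusted p = 0.0733), and its interaction of -0.21 (adjusted p = 0.0361) was lost in 15 of 18 alternative fits. GDF9 overlaps UQCRQ, and because the use of strand in counting was not stated, UQCRQ is uncertain on that account.

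In complex IV, the nuclear subunits surround the mitochondrially encoded core and tune its activity. COX5A, COX7B and COX6B1 fell most. COX7B, on the X chromosome, was at 169, 178 and 171 CPM with DMSO, 184, 177 and 168 with GDC, 169, 181 and 171 with GSK and 121, 107 and 98.9 with COMBO. The DMSO, GDC and GSK libraries overlapped with each other and every COMBO library lay below them. Neither single agent changed COX7B past the threshold (0.027 with adjusted p = 0.753 for GDC-0941 and 0.0053 with adjusted p = 0.939 for GSK126, the latter 0.16 with adjusted p = 0.0244 with library totals), whereas COMBO changed it by -0.66 (SE 0.060, adjusted p = 2.82e-09), with an interaction of -0.70 (SE 0.085, adjusted p = 7.53e-06).

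COX5A, which binds next to the COX4 subunit on the matrix side, was at 221, 241 and 228 CPM with DMSO, 238, 235 and 228 with GDC, 187, 193 and 192 with GSK and 139, 140 and 130 with COMBO. Its changes were 0.021 for GDC-0941 alone (adjusted p = 0.745), -0.27 for GSK126 alone (adjusted p = 2.20e-05) and -0.75 for both agents (SE 0.046, adjusted p = 4.80e-12), with an interaction of -0.50. COX6B1, which faces the intermembrane space, changed by -0.64 in COMBO (SE 0.050, adjusted p = 2.54e-10) and by -0.12 in GSK (adjusted p = 0.0417), which turned to 0.038 (adjusted p = 0.502) with library totals. COX5B, a zinc-binding subunit, was higher with either agent (0.25 in GDC, 0.18 in GSK) and lower in COMBO (-0.20, adjusted p = 0.00176), and COX8A followed the same course (0.18, 0.24 and -0.16, adjusted p = 0.00525 in COMBO). With library totals neither was called lower in COMBO (0.0039 for COX5B and 0.053 for COX8A).

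COX6C, COX7C and COX6A1 were called higher in COMBO. COX6C stood at 193, 195 and 182 CPM with DMSO, 227, 234 and 230 with GDC, 274, 279 and 290 with GSK and 266, 277 and 248 with COMBO. All libraries of the treated arms lay above those of DMSO, and COMBO overlapped with GSK. The changes were 0.28 for GDC-0941 alone (SE 0.047, adjusted p = 0.000105), 0.57 for GSK126 alone (SE 0.047, adjusted p = 1.28e-09) and 0.48 for both agents (SE 0.047, adjusted p = 9.82e-09), with an interaction of -0.37 (adjusted p = 0.000450). COX7C rose from 359 ± 6.41 CPM in DMSO to 415 ± 18.8 in COMBO (SD, n = 3), by 0.21 (SE 0.041, adjusted p = 9.07e-05), and was also called higher in GDC (0.26) and GSK (0.35). COX6A1 rose from 151 ± 6.61 to 167 ± 2.18 CPM, by 0.14 in COMBO (SE 0.043, adjusted p = 0.00621), a call lost in 4 of 19 alternative fits (adjusted p up to 0.180). COX6C has 17 named pseudogenes and COX6A1 has 7, and VPS13B overlaps COX6C on the annotation, so these counts are uncertain to that extent.

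Several complex IV subunits exist as isoforms used in different tissues. The ubiquitous forms made up nearly all of the counts. COX4I1 was at 353 ± 23.1 CPM with DMSO, 374 ± 5.00 with GDC, 360 ± 12.7 with GSK and 310 ± 5.64 with COMBO (SD, n = 3), and the lung form COX4I2 had 0 counts in all 12 libraries, where 0 allows up to 3 counts in each. COX4I1 changed by -0.19 in COMBO (adjusted p = 0.000827), but by 0.019 (adjusted p = 0.710) with library totals, and it overlaps COX4NB. The heart and muscle forms COX6A2 and COX7A1 had 3 and 34 counts over all libraries, and the testis forms COX6B2 and COX8C had 11 and 7. COX7A2, the form of liver and most tissues, was higher in GDC (0.21) and GSK (0.26), and in COMBO it changed by -0.080 (adjusted p = 0.0992), or by 0.13 (adjusted p = 0.0110) with library totals. COX7A2L, which joins complex III to complex IV in supercomplexes, changed by -0.24 in COMBO (adjusted p = 0.00114), which became -0.031 (adjusted p = 0.626) with library totals, and its interaction was 0.077 (adjusted p = 0.578).

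COX7B2, a paralog of COX7B known mainly from testis, was the exception among the isoforms. It had 4, 10 and 26 counts with DMSO, 6, 16 and 14 with GDC, 28, 36 and 18 with GSK and 41, 42 and 37 with COMBO, and its mean level was 0.533 ± 0.104 CPM with DMSO and 2.31 ± 0.419 CPM with COMBO (SD, n = 3). All GSK and COMBO libraries lay above those of DMSO. The changes were 2.08 for GSK126 alone (SE 0.31, adjusted p = 4.56e-06) and 1.97 for both agents (SE 0.29, adjusted p = 2.98e-06), whereas that in GDC was 0.55 (SE 0.37) and not called. COMBO differed from GSK by -0.11 (SE 0.25, adjusted p = 0.739). At this level COX7B2 remained below COX7B by a wide margin in CPM in every library.

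The assembly factors of complex IV, which insert haem and copper or build the core, followed another course. In COMBO 6 of 7 were called lower (median -0.70), where 39.2% of all genes were lower. Against GSK, however, 4 of 7 were lower (median -0.23), where 26.9% of all genes were lower. Their median interaction was -0.036 with 1 lower and 1 higher, where 16.5% of all genes were lower and 4.86% higher. COX10, which makes the haem precursor of the oxidase, was at 33.9, 30.4 and 30.1 CPM with DMSO, 25.4, 25.4 and 25.6 with GDC, 19.1, 19.6 and 19.2 with GSK and 16.6, 15.1 and 15.9 with COMBO. The 4 arms did not overlap and the interaction was 0.0020 (SE 0.10, adjusted p = 0.995), so that the log2 changes of -0.29 in GDC and -0.69 in GSK added up to the -0.98 in COMBO (SE 0.068, adjusted p = 4.55e-11). COX11, a copper carrier, changed by -0.85 in GSK and -0.71 in COMBO, with the libraries of these arms overlapping (26.9, 30.9 and 29.2 CPM in GSK, and 31.7, 36.1 and 28.0 in COMBO).

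COX15, which converts the haem of COX10 further, changed by -0.27 for GSK126 alone (adjusted p = 0.000434) and -0.30 for both agents (adjusted p = 7.43e-05), with an interaction of -0.036 (adjusted p = 0.806). With library totals both changes were lost, at -0.11 (adjusted p = 0.0936) and -0.089 (adjusted p = 0.150). COX18, an insertase, changed by -0.70 in COMBO, COX16 by -0.70 and the copper chaperone COX17 by -0.69, and COX17 was the assembly factor with an interaction called lower (-0.55, adjusted p = 0.000686). COX19, which works in copper delivery, was the member whose interaction was called higher. It was at 15.9 ± 0.910 CPM with DMSO, 13.0 ± 0.907 with GDC, 13.9 ± 0.426 with GSK and 15.4 ± 0.460 with COMBO (SD, n = 3). It was called lower with GDC-0941 alone (-0.31, adjusted p = 0.00583) and with GSK126 alone (-0.21, adjusted p = 0.0305), changed by -0.059 with both (adjusted p = 0.488), and had an interaction of 0.46 (SE 0.12, adjusted p = 0.00922). The GSK call was lost in 3 of 19 alternative fits: with library totals (-0.058, adjusted p = 0.552), without DMSO library C (adjusted p = 0.0812) and without GSK library C (adjusted p = 0.106). COX19 overlaps ADAP1, COX11 overlaps TOM1L1, COX15 overlaps ENTPD7 and CUTC, COX16 overlaps SYNJ2BP and COX17 overlaps POPDC2, so their counts are uncertain.

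In ATP synthase, the F1 head holds the catalytic sites, a central and a peripheral stalk link it to the membrane, and a ring of subunit c turns as protons pass. ATP5B, the catalytic beta subunit, was at 2002, 2106 and 2073 CPM with DMSO, 2041, 2069 and 2015 with GDC, 1620, 1584 and 1499 with GSK and 1061, 1085 and 1058 with COMBO. The GDC libraries overlapped with those of DMSO, and the COMBO libraries lay below all others. Its changes were -0.013 for GDC-0941 alone (adjusted p = 0.792), -0.39 for GSK126 alone (adjusted p = 3.16e-09) and -0.95 for both agents (SE 0.035, adjusted p = 1.70e-15), and its interaction was -0.54 (SE 0.049, adjusted p = 1.98e-07).

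Of the other F1 genes, 3 were also called lower, and they changed in COMBO by -0.67 (ATP5A1, the alpha subunit), -0.76 (ATP5C1, the gamma subunit of the rotor) and -0.74 (ATP5D, delta). The 4 peripheral stalk genes, ATP5F1, ATP5H, ATP5J and ATP5O, were all called lower in COMBO (median -0.59, range -0.71 to -0.56). The membrane subunits ATP5I, ATP5J2 and ATP5L were also called lower (median -0.49). On the annotation ATP5F1 overlaps WDR77, ATP5H overlaps KCTD2, ATP5J overlaps JAM2 and GABPA, and ATP5I overlaps MYL5, so these counts are uncertain. None of the 3 membrane subunits was called in GDC or GSK, although library totals gave ATP5I and ATP5J2 a higher call in GDC, and ATP5I and ATP5L in GSK. ATP5J2 (subunit f) had the lowest interaction among the called members. It was at 58.0, 72.3 and 66.9 CPM with DMSO, 69.2, 74.7 and 73.6 with GDC, 59.2, 62.8 and 65.3 with GSK and 38.7, 40.7 and 39.7 with COMBO. The COMBO libraries lay below all others, while those of the single arms overlapped with DMSO. Its interaction was -0.78 (SE 0.095, adjusted p = 6.34e-06). ATP5J2 overlaps PTCD1, CPSF4 and the read-through gene ATP5J2-PTCD1, which had 0 counts in all libraries.

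Subunit c is encoded by 3 genes whose mature proteins are identical and whose import sequences differ. On hg38 (GENCODE 44), ATP5G1 lies on chromosome 17 from 48892765 to 48895871, ATP5G2 on chromosome 12 from 53632726 to 53677408 and ATP5G3 on chromosome 2 from 175176258 to 175181710. ATP5G1 was at 90.5, 101 and 101 CPM with DMSO, 90.9, 92.3 and 81.3 with GDC, 61.3, 68.3 and 64.2 with GSK and 34.7, 33.5 and 36.8 with COMBO. ATP5G3 was at 298 ± 3.88 CPM with DMSO, 261 ± 10.4 with GDC, 214 ± 8.73 with GSK and 124 ± 5.70 with COMBO (SD, n = 3). ATP5G2 was at 141, 157 and 151 CPM with DMSO, 179, 176 and 174 with GDC, 161, 161 and 158 with GSK and 146, 148 and 147 with COMBO. ATP5G1 and ATP5G3 therefore stood below DMSO in every COMBO library, whereas ATP5G2 overlapped with DMSO there and lay above it in both single arms.

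The log2 fold changes in COMBO were -1.49 for ATP5G1 (SE 0.064, adjusted p = 1.75e-14), -1.27 for ATP5G3 (SE 0.048, adjusted p = 2.05e-15) and -0.031 for ATP5G2 (SE 0.045, adjusted p = 0.526), which became 0.18 (adjusted p = 0.00116) with library totals. Their interactions were -0.73 (SE 0.091), -0.60 (SE 0.067) and -0.36 (SE 0.064), all called. Per kilobase of the GENCODE canonical transcript, ATP5G2 made up 47.0% ± 0.559 of the summed subunit c level with DMSO, 54.1% ± 1.13 with GDC, 58.1% ± 0.789 with GSK and 69.5% ± 0.248 with COMBO (SD, n = 3), and the summed level was 503 ± 23.6, 516 ± 16.9, 436 ± 8.49 and 334 ± 0.338 CPM per kilobase. The canonical transcripts are 646, 632 and 2587 bases long for ATP5G1, ATP5G2 and ATP5G3, so the shares depend on the long annotated transcript of ATP5G3. ATP5G1 has 8 named pseudogenes and ATP5G2 has 5.

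ATP5E, the epsilon subunit, was listed at 1.45 ± 0.710 CPM with DMSO, 2.46 ± 0.413 with GDC, 2.71 ± 0.808 with GSK and 1.98 ± 0.696 with COMBO (SD, n = 3), well under its processed pseudogene ATP5EP2, at 11.1 ± 0.788 CPM in DMSO. Reads of such near-identical copies can be split or dropped in counting, so neither level is certain. ATP5E was called higher in GSK (0.86, adjusted p = 0.0142), but not without GSK library B (0.59, adjusted p = 0.139) or without DMSO library C (0.74, adjusted p = 0.0772). Its change in COMBO was 0.43 (SE 0.29, adjusted p = 0.174) and its interaction -1.09 (SE 0.42, adjusted p = 0.0663), which passed the threshold in 4 of 18 alternative fits. ATP5L2, a copy of ATP5L, had at most 39 counts in a library and was called in no comparison. ATP5S was called higher in GDC (0.31) and changed by -0.0017 in COMBO (adjusted p = 0.983; 0.21 and called higher with library totals), and ATP5SL was called lower in each arm (-0.26, -0.34 and -0.42).

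**Figure D3:**
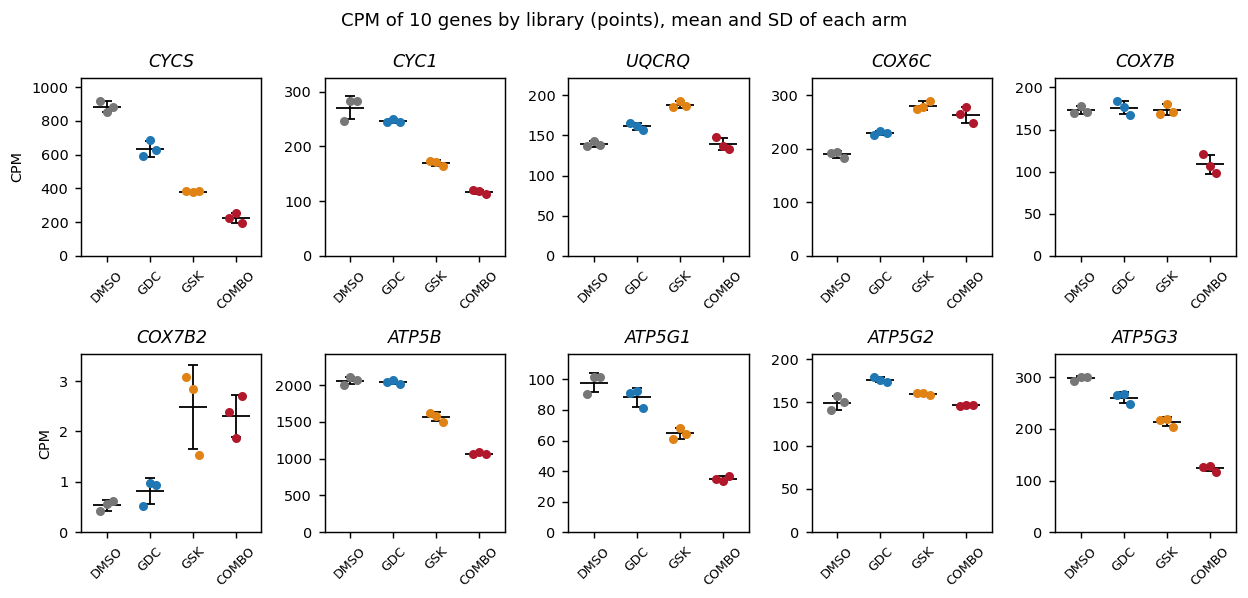
CPM of 10 genes in each library (points), with the mean (bar) and SD (whiskers) of the 3 libraries of each arm on a linear axis from 0. CYCS, CYC1, ATP5G1 and ATP5G3 step down from DMSO to COMBO, COX7B is low in COMBO alone, and UQCRQ is high in the single arms but level with DMSO in COMBO.

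The design also allows each agent to be read with and without the other, in contrasts that share no library. GDC-0941 without GSK126 (GDC against DMSO) left 9 of the 34 subunits higher, 5 lower and 20 not called. In that comparison 20% of all genes were called in each direction. With GSK126 (COMBO against GSK), 8 of these 9 subunits were called lower, as were 19 of the 20 and all 5, against 26.9% of all genes. The exception among the 9 was COX6C (-0.091, adjusted p = 0.123), and that among the 20 was ATP5E. Of the 8, the calls of ATP5G2, COX6A1 and COX7C were lost in 14, 9 and 5 of 19 alternative fits, library totals among them. GSK126 without GDC-0941 left 10 subunits higher, 15 lower and 9 not called, where 40.0% of all genes were higher and 35.7% lower. With GDC-0941 (COMBO against GDC), all 15 and all 9 were lower, and of the 10, 5 were lower, 4 not called and 1 (COX6C, 0.20, adjusted p = 0.000802) higher. Of all genes, 38.0% were lower and 37.9% higher in that comparison. With library totals, UQCRQ, UQCR11, ATP5G2 and COX4I1 were no longer called lower against GDC. The interaction tests this difference for each gene. It was negative for 34 of 34 subunits and called lower for 33, all but ATP5E. Of all genes, 16.5% were called lower, and their median interaction was -0.063.

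The median interaction of subunits was -0.40 in complex III, -0.51 in complex IV and -0.50 in ATP synthase. Called lower were 9 of 9, 10 of 10 and 14 of 15, against 16.5% of all genes. Complex IV, the highest of the 3 against DMSO, was thus not the highest here. Across 18 alternative fits the number of subunits with a lower call, with CYCS counted in, was 29 to 35 of 35, and the interaction was negative for 35 of 35 in each. Members whose canonical transcript is under 1000 bases had a median of -0.51 (23 genes) and longer ones -0.37 (26 genes), and among other tested genes the medians were -0.21 (915 short genes) and -0.057 (12534 longer genes). Transcript length thus moved with the interaction, and its part in the result was not tested.

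**Figure D4:**
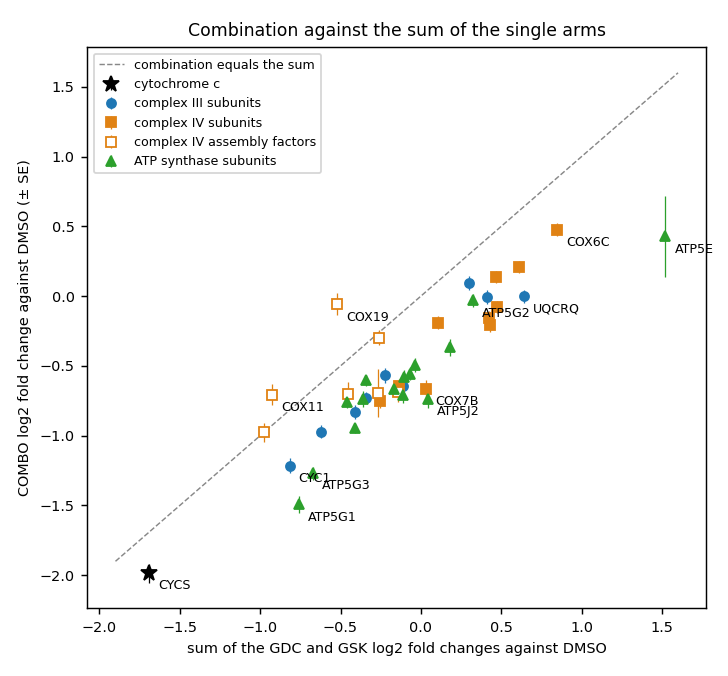
COMBO log2 fold change against DMSO (vertical axis, ± SE) set against the sum of the GDC and GSK log2 fold changes (horizontal axis) for subunits, cytochrome c and complex IV assembly factors. Points under the dashed line had a lower change in COMBO than the sum, and all 34 subunits lie under it, those that rose in COMBO included. Of the assembly factors, COX19, COX11 and COX10 lie on or above it, and COX15, COX16, COX17 and COX18 lie under it. Both axes rest on the same DMSO libraries.

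The rest of the pathway was described from lists that share no member with the 55 genes. Of all tested genes, 39.2% were called lower and 43.3% higher in COMBO, and 16.5% lower and 4.86% higher in the interaction. Among the 37 nuclear complex I subunits listed, all tested, 28 were called lower and 0 higher in COMBO (median -0.48), and the interaction was lower for 34 and higher for 0 (median -0.42). Of the 4 complex II subunits, SDHA, SDHB and SDHD were called lower in COMBO (-0.41, -1.08 and -1.09), and SDHC changed by 0.023. Of 5 complex III assembly factors, 4 were lower in COMBO and TTC19 was higher (0.25). Among 19 tested assembly factors and other subunits of complex IV, 12 were lower and 3 higher (median -0.48). Of these, SURF1 (0.51), COA5 (0.42) and FAM36A (1.31) were higher, and NDUFA4, counted today as a complex IV subunit, changed by 0.32 in GSK and by -0.054 in COMBO, with an interaction of -0.51. Of 7 genes for ATP synthase assembly, regulation or accessory subunits, 5 were lower in COMBO, with TMEM70 at -1.15 and the inhibitor ATPIF1 at -0.22. Among 8 tested genes for ATP and phosphate exchange, 6 were lower in COMBO and 0 higher (median -0.94), including the porin VDAC1 (-1.23) and the adenine nucleotide carriers SLC25A4 (-0.98) and SLC25A5 (-0.95).

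The 13 regulators of nuclear respiratory genes and of mitochondrial transcription showed 9 lower and 0 higher in COMBO (median -0.64). Of all genes, 39.2% were lower and 43.3% higher there. TFAM, which packages and transcribes mitochondrial DNA, changed by -1.39, PPARGC1B and PPRC1, coactivators of the PGC-1 family, by -1.27 and -1.22, GABPB1 by -0.94, NRF1 by -0.69 and ESRRA by -0.68. Against GSK, however, 1 regulator was higher and 1 lower (median -0.070), where 19.0% of all genes were higher and 26.9% lower. The interaction was called for 1, GABPA (0.39), with a median of 0.083 over the 13. Of all genes, 4.86% were higher and 16.5% lower in the interaction. PPARGC1A, which encodes PGC-1α, was called lower in GDC (-0.58, adjusted p = 0.0329) and changed by -0.19 in COMBO (adjusted p = 0.363).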

How the data were processed

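PolyA RNA-seq was deposited as 1 table of raw counts per library, for 12 libraries in 4 arms. According to the methods, the authors aligned reads to hg38 with STAR, counted reads per gene with HTSeq and tested the counts with DESeq2; tool versions, annotation and use of strand are not given in the sources used here. The 5 summary lines of each table were left out of library sizes. Counts in genes were scaled by TMM, and edgeR 4.0.16 (R 4.3.3, limma 3.58.1) fitted 1 coefficient per arm to all 12 libraries with the quasi-likelihood test, after filterByExpr. Adjusted p-values are Benjamini-Hochberg over 14189 genes in each of 6 comparisons, and the threshold was 0.05. CPM were computed from gene counts and TMM-scaled library sizes. The chi-square of library pairs within an arm, divided by its degrees of freedom, was 1.76 to 6.18, above sampling noise, so each library counted as 1 replicate. The common biological coefficient of variation was 0.0499. In 1 set of simulated counts every gene had the same spread, and 100 genes were changed by 0.5 on the log2 scale in COMBO. Of those that passed the filter, 81.3% were recovered for COMBO against DMSO and 60.4% for the interaction. In the data far more genes were called and the spread varied by gene, so these rates may not hold there. The floor of 3 counts covers counting error only.

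The members, the pathway and marker lists and the tests were chosen with earlier results of these data known. Genes described singly were CYCS, CYC1, the subunit c genes, the paralog sets, the 2 lowest and 2 highest of each group in COMBO and the 2 lowest and 2 highest interactions, all members higher in COMBO and the 5 genes most like the subunits; other members are named as part of their group. All 55 symbols matched GENCODE 44 on hg38, and promoters came from RefSeq on GRCh38.p14 (40 of 55 matched). Alternatives were DESeq2 1.42.0, DESeq2 size factors, library totals, dropping the filter, keeping genes at 1 CPM or more on average, the compared arms alone, a replicate block and leaving out each library.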

Additional observations from a re-analysis of the deposited data

Results flagged for a closer look

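The effect of each agent differed with and without the other, by the interaction test of edgeR over all genes, for 18 of the genes described singly. The interactions on the log2 scale were -0.78 for ATP5J2, -0.73 for ATP5G1, -0.60 for ATP5G3 and -0.36 for ATP5G2 in ATP synthase. In complex III they were -0.64 for UQCRQ, -0.40 for CYC1, -0.35 for UQCRFS1 and -0.21 for UQCRB. In complex IV they were -0.70 for COX7B, -0.55 for COX7A2, -0.51 for COX6B1, -0.50 for COX5A, -0.40 for COX7C, -0.37 for COX6C, -0.33 for COX6A1 and -0.29 for COX4I1. CYCS stood at -0.30. The calls of CYCS and UQCRB were lost in most alternative fits (adjusted p up to 0.270 and 0.395), and that of COX4I1 in some. COX19 was the exception in sign, at 0.46.

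Reads outside genes, which enter no comparison, made up 21.8% ± 1.07 of reads in COMBO (SD, n = 3), above the 14.2% in DMSO. Its part in the results was not tested.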

How the results depend on the processing

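In COMBO against DMSO the members called lower numbered 35, and 30 to 36 over the alternatives; for the interaction they numbered 37, and 30 to 38. The scaling of libraries moved most values. With library totals, the medians of all tested members of complexes III, IV and ATP synthase were -0.11, 0.13 and 0.038 in GSK. They were -0.40, -0.031 and -0.40 in COMBO, and -0.45, -0.17 and -0.42 in COMBO against GDC. The values of -0.44, 0.036 and -0.46 given above for COMBO are of subunits alone. The members called higher were 11 in COMBO and 6 in COMBO against GDC. COX6B1 turned to 0.038 in GSK (adjusted p = 0.502), COX4I1 to 0.019 in COMBO (adjusted p = 0.710) and COX7A2L to 0.032 in COMBO against GDC (adjusted p = 0.633). The GDC median of ATP synthase was 0.055 with library totals, -0.021 with DESeq2, -0.022 with DESeq2 size factors, -0.042 without a filter and -0.014 for genes with a mean of at least 1 CPM.

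Without a filter, the medians of complexes III and IV were -0.047 and -0.036 in GDC, those of complex III and ATP synthase -0.34 and -0.20 in GSK, and those of complex IV and ATP synthase -0.31 and -0.41 in the interaction, which was higher for 2 members. With a mean of at least 1 CPM, the medians of complex IV and ATP synthase were -0.27 and -0.52 in COMBO against GDC, and that of ATP synthase was -0.43 in the interaction.

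Leaving out 1 library at a time, the medians of complexes III, IV and ATP synthase ranged from -0.048 to 0.0080, -0.029 to 0.014 and -0.041 to 0.012 in GDC, and from -0.33 to -0.26, -0.12 to 0.019 and -0.18 to -0.11 in GSK. In COMBO the median of all tested complex IV members ranged from -0.30 to -0.21. In COMBO against GDC that of all tested ATP synthase members ranged from -0.59 to -0.53. In COMBO against GSK complex IV ranged from -0.30 to -0.18 and ATP synthase from -0.46 to -0.35, with 0 to 1 members higher. The interaction ranged from -0.41 to -0.28, -0.41 to -0.29 and -0.50 to -0.39, with 1 to 2 members higher. The cause was not tested.

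Libraries of the same letter correlated weakly: 2 of 18 same-letter pairs were above 0.1 (-0.0839 to 0.188), and 6 of 12 libraries correlated best with their own letter. No chance level was computed for these counts, so they cannot tell whether the letters pair the libraries. With the letter as a replicate block, 35 members were lower and 4 higher in COMBO, and 38 lower and 1 higher in the interaction.

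Calls near the threshold were lost in some fits: ATP5G2 in COMBO against GSK in 14 of 19, UQCRB in COMBO against GSK in 15 of 19, ATP5G1 in GDC in 5 of 19, COX6A1 and COX7C in COMBO against GSK in 9 and 5 of 19, COX19 in GSK in 3 of 19 and the interaction of COX4I1 in 5 of 18. That of COX7A2L in COMBO against GDC was lost in 16 of 19 with its sign kept, and also with library totals, where the sign changed. The interaction calls of CYCS and UQCRB were lost in most of the 18 fits. The interaction could not be fitted on the compared arms alone. Near 1 CPM, as for ATP5L2 and COX7B2, the depth limits what can be told.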

Other observations

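Among 8695 genes with a mean log2 CPM of at least 4, the genes whose level followed the mean of the 34 subunits most closely over the 12 libraries were PRDX2 (Pearson r 0.990), TXN (0.984), ECHS1 (0.979), HADH (0.977) and GSTM3 (0.976). PRDX2 and TXN encode a peroxiredoxin and thioredoxin, and ECHS1 and HADH encode enzymes of fatty acid oxidation in mitochondria. The libraries fall into 4 arms, so these values describe the arms more than the single libraries, and they are given with no test.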
